A study of Mus musculus with 11 samples.

Results

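The 10 genes described here encode enzymes that make and break down polyamines, together with the proteins that control the first of these enzymes. They are Amd1, Amd2, Odc1, Srm, Sms, Smox, Sat1, Oaz1, Oaz2 and Azin1, taken by symbol from a list of pathway genes among the 55487 genes of the deposited tables, and all 10 passed the filter on low counts. RNA of the gastrocnemius, a calf muscle of mainly fast fibres, was read as tags from the 3' ends of polyadenylated transcripts (QuantSeq 3' mRNA FWD) in 11 mice, each 1 library. The groups were 4 wild-type mice, 3 mice with a Raptor knock-out and 4 mice with a Raptor mTOR double knock-out. Both knockouts carried floxed alleles (Raptor, or Raptor and mTOR) and a Cre recombinase that tamoxifen switches on and that the human skeletal actin promoter restricts to muscle fibres, so other cells of the muscle keep both genes. All 3 groups are recorded as treated with tamoxifen, in chow for 7 weeks from 3 months of age, and muscles were taken 7 months after the treatment began. Whether the wild-type mice carried Cre or floxed alleles, and where the loxP sites lie, is not given in the sources used here.

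Polyamines (putrescine, spermidine and spermine) are small positively charged molecules that bind nucleic acids and are needed for translation and growth. Ornithine decarboxylase makes putrescine, S-adenosylmethionine decarboxylase supplies the aminopropyl groups, and spermidine synthase and spermine synthase add these groups one after the other. Spermine oxidase and the acetyltransferase encoded by Sat1 lead back towards putrescine or out of the cell, and antizymes take ornithine decarboxylase to the proteasome unless the antizyme inhibitor binds them. In skeletal muscle, polyamine genes are known to respond to androgens and to disuse.

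In both knockouts the RNA of the pathway moved in opposite directions at different steps. All levels and folds here are of RNA, and protein, enzyme activity and polyamines are not among these data. RNA for both decarboxylase steps fell. S-adenosylmethionine decarboxylase (Amd1 and Amd2) fell 11.97-fold in mice with the Raptor knockout and 18.8-fold in those with the double knockout, and Odc1 fell 2.52-fold and 2.89-fold. Spermine oxidase (Smox) fell 4.31-fold and 7.41-fold. Spermidine synthase (Srm) rose 2.20-fold and 2.56-fold, and the antizyme inhibitor Azin1 rose 2.08-fold and 1.41-fold. Srm rests on 11 to 40 counts per library. The calls of Srm in both knockouts and of Azin1 in the double knockout did not hold in every setting. Genotype and sex were unevenly mixed, and the size of the fall of Amd1 and Amd2 in the double knockout differed with the libraries compared. Between the 2 knockouts no gene of the pathway passed the test across all genes. These folds are from edgeR's quasi-likelihood test, in which a gene is called at a Benjamini-Hochberg adjusted p under 0.05 over 10505 tested genes.

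Library totals ran from 2791354 to 6328563 counts. The deposited counts are marked run1 for double-knockout replicates 3 and 4 and run3 for all other libraries. Run and the double knockout were thus partly confounded, and the labels do not say what a run is. The level of Rptor, the gene that encodes Raptor, stood at 8.57 to 10.6 CPM (TMM-scaled counts-per-million) in wild type, 3.85 to 4.99 in the Raptor knockout and 4.07 to 5.37 in the double knockout. Mtor, the other target of the double knockout, stood at 15.2 to 28.2 CPM in wild type, 18.2 to 22.6 in the Raptor knockout and 31.8 to 39.5 in the double knockout. Its gene count was thus called higher where it was targeted (1.71-fold against wild type, edgeR adjusted p = 0.00534), and these 3' tags do not show whether the floxed part was lost. Xist, the RNA that coats the silenced X chromosome of females, was present in 4 libraries, which were 1 of 4 wild-type (replicate 3), 0 of 3 Raptor-knockout and 3 of 4 double-knockout libraries (replicates 1 to 3). The Y-linked Ddx3y was present in the other 7. Sex is not among the labels, and genotype and sex were thus unevenly mixed. All 9 markers of the myofibre were tested, and their summed level was 89692 to 94754 CPM in wild type, 81199 to 87923 in the Raptor knockout and 80393 to 96439 in the double knockout. Levels by library are listed as replicates 1 to 4 of wild type, 1 to 3 of the Raptor knockout and 1 to 4 of the double knockout.

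S-adenosylmethionine decarboxylase is encoded by a pair of rows in these tables. Amd1 (ENSMUSG00000075232, GRCm38 chromosome 10, 40287458 to 40302186, minus strand) has up to 8 exons in a transcript, and Amd2 (ENSMUSG00000063953, chromosome 10, 35708675 to 35711892, minus strand) has 1. The transcripts Amd1-201 and Amd2-201, of 3204 and 3218 bases in GENCODE M21, were identical at 3190 of 3204 aligned bases (99.6%). Over the last 500 bases of Amd1-201, where 3' tags lie, 98.7% of all 50-base windows and 98.6% of all 75-base windows occurred letter for letter in Amd2-201. Tags of the genes can therefore hardly be told apart, and their summed level is the value that counts here. The DNA before the starts of the genes is not alike, and the 250 bases before each start are shown here to make that visible, from RefSeq (build GRCm38.p6), with every CpG in capitals. The Amd1 stretch is chr10:40302189-40302438 and the Amd2 stretch is chr10:35711892-35712141, both on the minus strand and written 5' to 3'.
Amd1: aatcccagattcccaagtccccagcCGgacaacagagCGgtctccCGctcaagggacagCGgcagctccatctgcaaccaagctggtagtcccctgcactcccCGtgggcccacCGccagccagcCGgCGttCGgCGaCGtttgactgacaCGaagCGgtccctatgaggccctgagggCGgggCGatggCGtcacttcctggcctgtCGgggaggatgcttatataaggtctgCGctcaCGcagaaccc
Amd2: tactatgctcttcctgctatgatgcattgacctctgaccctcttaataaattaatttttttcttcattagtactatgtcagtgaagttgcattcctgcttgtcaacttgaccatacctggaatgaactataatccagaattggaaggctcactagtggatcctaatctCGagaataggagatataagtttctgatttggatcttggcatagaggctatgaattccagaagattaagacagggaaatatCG
The Amd1 stretch had 64.4% GC and 19 CpG, and the Amd2 stretch 37.6% GC and 2 CpG, where the median of all promoter windows in the table was 6 CpG. At the same position the stretches shared 64 of 250 bases. After the start, by contrast, the windows shared an unbroken stretch of 48 bases, which lies in the transcribed part.

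The summed level of Amd1 and Amd2 was 3234, 4096, 637 and 2756 CPM in wild type. It was 231, 181 and 260.0 CPM in the Raptor knockout and 152, 141, 139 and 139 CPM in the double knockout. Every knockout library lay below every wild-type library and every double-knockout library below every Raptor-knockout library. Wild-type replicate 3, the wild-type library with Xist, stood far below the other wild-type libraries but above every knockout library. The means were 2681 ± 1471 (SD, n = 4), 224 ± 39.9 (SD, n = 3) and 143 ± 6.45 (SD, n = 4). The log2 fold change was -3.58 (SE 0.55, 11.97-fold lower, edgeR adjusted p = 0.00208) for the Raptor knockout against wild type. For the double knockout against wild type it was -4.23 (SE 0.50, 18.8-fold lower, edgeR adjusted p = 0.000275). The size of the fall differed with the measure, the scaling and the libraries compared. On the deposited TPM (transcripts-per-million, pseudocount 1, limma) it was -3.22 for the Raptor knockout and -3.75 for the double knockout. The summed TPM were 1297, 1639, 264 and 690 in wild type. With library totals in place of TMM scaling the changes were -3.36 and -3.97. Among the libraries without Xist it was -4.62 for the double knockout, with 1 double-knockout library, and -3.94 for the Raptor knockout (edgeR adjusted p = 1.67e-05). Among those with Xist, 1 wild-type against 3 double-knockout libraries, it was -2.17, a value whose wild-type arm has no spread of its own. With Xist as a covariate it was -3.36 (edgeR adjusted p = 0.00175). The part of sex in these values was not tested beyond that.

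Each row of the pair had the same order of groups. Amd1 stood at 2248, 2756, 420 and 2034 CPM in wild type, 163, 133 and 213 CPM in the Raptor knockout and 114, 101, 98.1 and 101 CPM in the double knockout. Amd2 stood at 987, 1339, 217 and 722 CPM in wild type, 67.9, 48.5 and 46.7 CPM in the Raptor knockout and 37.9, 39.6, 41.3 and 37.2 CPM in the double knockout. In both rows wild-type replicate 3 was again the lowest wild-type library, and no group overlapped another. The Amd2 row held 26.2% to 34.03% of the summed level in wild type, 17.9% to 29.5% in the Raptor knockout and 24.9% to 29.6% in the double knockout, ranges that overlap. Against wild type, Amd1 fell 10.995-fold in the Raptor knockout (edgeR adjusted p = 0.00301) and 17.97-fold in the double knockout (edgeR adjusted p = 0.000396). Amd2 fell 14.97-fold (edgeR adjusted p = 0.00133) and 20.9-fold (edgeR adjusted p = 0.000213). A related pseudogene row, Amd-ps3, held 940 counts in wild-type replicate 4 and at most 6.72 in any other library. With it in the sum the log2 fold changes against wild type were -3.61 (Raptor knockout) and -4.25 (double knockout).

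**Figure D1:**
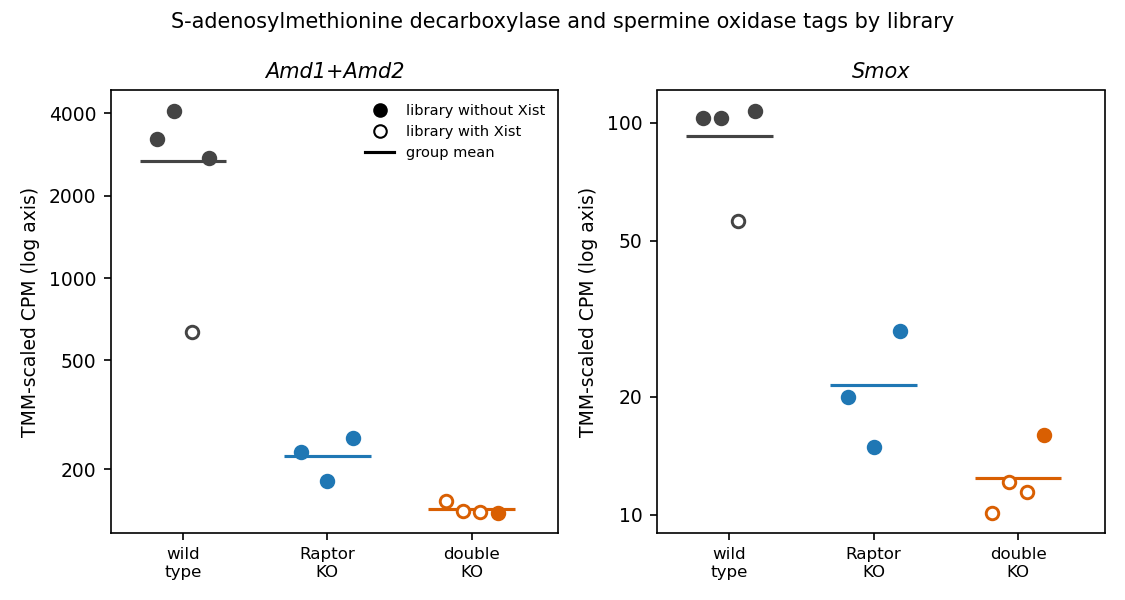
Level of Amd1 and Amd2 summed (left) and of Smox (right) in each of the 11 libraries, in TMM-scaled CPM on a log axis, with open points for libraries with Xist and a line at each group's mean. Every knockout point lies below every wild-type point, and the open wild-type point is replicate 3, at 637 CPM (left) and 56.1 CPM (right).

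Ornithine decarboxylase, the enzyme that opens the pathway, is encoded by Odc1 (ENSMUSG00000011179, chromosome 12, 17544794 to 17551505, plus strand). Odc1 stood at 159, 193, 235 and 158 CPM in wild type, 83.3, 63.6 and 75.1 CPM in the Raptor knockout and 73.0, 64.9, 62.3 and 57.5 CPM in the double knockout. All 7 knockout libraries lay below all wild-type libraries, and the knockout groups overlapped. Here wild-type replicate 3 was the highest wild-type library, unlike in Amd1 and Amd2. Against wild type, Odc1 fell 2.52-fold when Raptor was targeted (log2 fold change -1.33, SE 0.17, edgeR adjusted p = 6.72e-05) and 2.89-fold when both genes were targeted (log2 fold change -1.53, SE 0.15, edgeR adjusted p = 3.42e-06). With only the libraries without Xist its log2 fold changes were -1.23 and -1.58, and both calls held, the second with 1 double-knockout library.

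The RNAs of the aminopropyl transferases went in opposite directions. Srm (ENSMUSG00000006442, chromosome 4, 148591503 to 148594993, plus strand), which encodes spermidine synthase, stood at 2.53, 4.65, 3.45 and 4.96 CPM in wild type. It stood at 7.69, 8.39 and 9.39 CPM in the Raptor knockout and 11.4, 10.8, 9.01 and 8.43 CPM in the double knockout. Every knockout library was above every wild-type library, and the knockouts overlapped. Against wild type, Srm rose 2.20-fold when Raptor was targeted (log2 fold change 1.14, SE 0.26, edgeR adjusted p = 0.00553) and 2.56-fold when both genes were targeted (log2 fold change 1.36, SE 0.24, edgeR adjusted p = 0.000526). These levels rest on 11 to 40 counts per library. Without the libraries with Xist the changes were 1.04 (edgeR adjusted p = 0.0554) and 1.05 (edgeR adjusted p = 0.226, 1 double-knockout library), so both calls ended there.

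Sms (ENSMUSG00000071708, chromosome X, 157443855 to 157492287, minus strand) encodes spermine synthase. It stood at 128, 137, 117 and 152 CPM in wild type, 78.2, 100.2 and 71.3 CPM in the Raptor knockout and 88.5, 59.8, 104.7 and 93.3 CPM in the double knockout. All knockout libraries were below all wild-type libraries. Against wild type, Sms fell 1.60-fold when Raptor was targeted (log2 fold change -0.68, SE 0.18, edgeR adjusted p = 0.0171) and 1.54-fold when both genes were targeted (log2 fold change -0.62, SE 0.17, edgeR adjusted p = 0.0119). With library totals in place of TMM scaling the changes were -0.48 (edgeR adjusted p = 0.0678) and -0.38 (edgeR adjusted p = 0.0863). The double-knockout call also ended with Xist as a covariate (-0.52, edgeR adjusted p = 0.0732), among the libraries without Xist (-0.60, edgeR adjusted p = 0.273) and among those with it (-0.49, edgeR adjusted p = 0.329). Without Raptor-knockout replicate 1 or 3 the change in that knockout was -0.635 (edgeR adjusted p = 0.0853) or -0.58 (edgeR adjusted p = 0.0930). The deposited TPM (transcripts-per-million) of Sms were 62.4, 207 and 27.2 in the Raptor knockout against 181 to 213 in wild type. They were 141, 40.25, 240 and 192 in the double knockout, and the cause of this scatter was not tested. On TPM, tested with limma, the log2 fold changes were -1.46 (adjusted p = 0.174) and -0.62 (adjusted p = 0.507).

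Smox (ENSMUSG00000027333, chromosome 2, 131491496 to 131525922, plus strand) encodes spermine oxidase, which turns spermine back into spermidine. It stood at 103, 103, 56.1 and 108 CPM in wild type, 19.998, 14.9 and 29.4 CPM in the Raptor knockout and 10.1, 12.1, 11.4 and 16.0 CPM in the double knockout. Wild-type replicate 3 was low, as in Amd1 and Amd2, yet above every knockout library, and the highest double-knockout library lay above the lowest Raptor-knockout library. Against wild type, Smox fell 4.31-fold when Raptor was targeted (log2 fold change -2.11, SE 0.26, edgeR adjusted p = 7.45e-05) and 7.41-fold when both genes were (log2 fold change -2.89, SE 0.25, edgeR adjusted p = 1.33e-06). Among the libraries with Xist, which hold 1 wild-type library, the log2 fold change of the double knockout was -2.34, and among those without it, which hold 1 double-knockout library, -2.73.

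Sat1 (ENSMUSG00000025283, chromosome X, 155213132 to 155216449, minus strand) encodes the acetyltransferase that marks spermidine and spermine for export or breakdown. It stood at 18.2, 18.2, 24.5 and 8.34 CPM in wild type, 27.4, 24.4 and 29.9 CPM in the Raptor knockout and 36.0, 42.3, 39.5 and 23.2 CPM in the double knockout. All groups overlapped, and the libraries with Xist were the highest of their group. Against wild type, Sat1 rose 2.02-fold when both genes were targeted (log2 fold change 1.02, SE 0.26, edgeR adjusted p = 0.00922). In the Raptor knockout its log2 fold change was 0.64 (SE 0.28, edgeR adjusted p = 0.130). The call in the double knockout ended with Xist as a covariate (0.67, edgeR adjusted p = 0.0585), among the libraries without Xist (0.63, edgeR adjusted p = 0.461) and among those with it (0.65, edgeR adjusted p = 0.101). In the Raptor knockout the covariate gave a call (0.89, edgeR adjusted p = 0.0155).

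**Figure D2:**
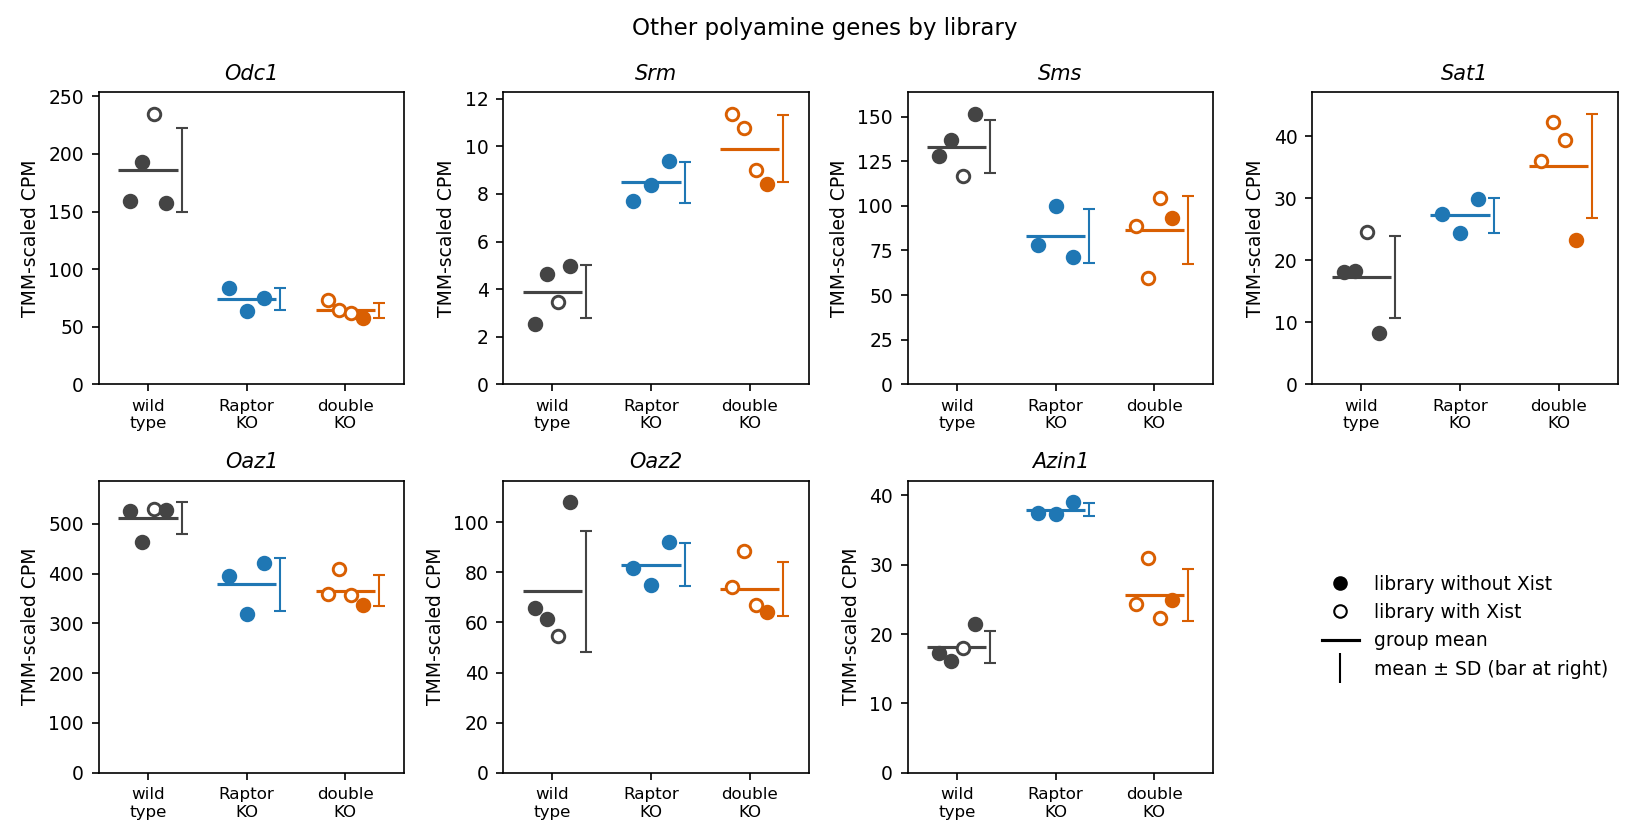
Levels of Odc1, Srm, Sms, Sat1, Oaz1, Oaz2 and Azin1 in each of the 11 libraries, in TMM-scaled CPM from 0, with open points for libraries with Xist, a line at the group mean and a bar of mean ± SD. Odc1 is lower and Srm higher in all knockout libraries than in all wild-type libraries, and Azin1 is highest in the Raptor knockout, at 37.4 to 39.0 CPM.

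Among the genes that control ornithine decarboxylase, Azin1 rose and Oaz1 fell. Azin1 (ENSMUSG00000037458, chromosome 15, 38487427 to 38519266, minus strand) encodes a relative of ornithine decarboxylase that binds antizyme and so spares the enzyme. It stood at 17.3, 16.1, 17.9 and 21.4 CPM in wild type, 37.4, 37.4 and 39.0 CPM in the Raptor knockout and 24.3, 31.0, 22.3 and 24.99 CPM in the double knockout. None of the groups overlapped, and the double knockout lay between the others. Against wild type, Azin1 rose 2.08-fold when Raptor was targeted (log2 fold change 1.06, SE 0.16, edgeR adjusted p = 0.000304) and 1.41-fold when both genes were targeted (log2 fold change 0.49, SE 0.15, edgeR adjusted p = 0.0264). The second call ended without wild-type replicate 1 (0.48), 2 (0.46) or 3 (0.46) and without double-knockout replicate 2 (0.39), with an edgeR adjusted p from 0.0540 to 0.0924. It also ended with no filter on low counts (0.45, edgeR adjusted p = 0.111) and with Xist as a covariate (0.49, edgeR adjusted p = 0.0753). Among the libraries without Xist, which hold 1 double-knockout library, the change was 0.42. Among those with Xist, which hold 1 wild-type library, it was 0.50.

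Oaz1 (ENSMUSG00000035242, chromosome 10, 80826656 to 80829290, plus strand), the main antizyme gene, stood at 526.5, 463, 529 and 527 CPM in wild type. It stood at 395, 319 and 421 CPM in the Raptor knockout and 359, 410, 358 and 336 CPM in the double knockout. All knockout libraries were below all wild-type libraries by a small margin. Against wild type, Oaz1 fell 1.35-fold when Raptor was targeted (log2 fold change -0.43, SE 0.13, edgeR adjusted p = 0.0282) and 1.398-fold when both genes were targeted (log2 fold change -0.48, SE 0.12, edgeR adjusted p = 0.00660). The Raptor-knockout call ended in 10 of 24 other settings. Among these were library totals (-0.23, edgeR adjusted p = 0.251), only the 2 groups (-0.42) and leaving out the smaller run, run1 (-0.44). It also ended in the 3 TPM settings (-0.34 in each) and the libraries without Xist (-0.45). The rest left out wild-type replicate 1 (-0.40), Raptor-knockout replicate 1 (-0.47) or Raptor-knockout replicate 2 (-0.33). The double-knockout call ended in 6 of 25. These were library totals (-0.25, edgeR adjusted p = 0.155), run as a covariate (-0.41) and leaving out the smaller run (-0.41). The others were unfiltered TPM (-0.34, limma) and the libraries without (-0.61) or with Xist (-0.52).

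Oaz2 (ENSMUSG00000040652, chromosome 9, 65668001 to 65690300, plus strand), a second antizyme gene, was not called in any comparison. It stood at 65.6, 61.5, 54.4 and 108 CPM in wild type, 81.8, 74.99 and 92.2 CPM in the Raptor knockout and 74.0, 88.3, 67.1 and 64.2 CPM in the double knockout. The groups overlapped, and wild-type replicate 4 was the highest library of all. Against wild type its log2 fold change was 0.20 with Raptor targeted (95% interval -0.24 to 0.63, edgeR adjusted p = 0.553) and 0.02 with both targeted (95% interval -0.39 to 0.43, edgeR adjusted p = 0.951). Without wild-type replicate 4 the change in the Raptor knockout was 0.46 (edgeR adjusted p = 0.0293).

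As a set, 6 of the 10 genes were called lower and 3 higher in the double knockout against wild type, where 13.7% and 13.0% of all tested genes were called lower and higher. In the Raptor knockout 6 were called lower and 2 higher, where 9.43% and 8.73% of all genes were. In each comparison 8 of the 10 genes had groups that did not overlap, against 26.8% of all genes for the double knockout and 27.3% for the Raptor knockout. The median log2 fold change of the 10 genes was -0.55 in the double knockout and -0.56 in the Raptor knockout, beside 0.02 and 0.00 over all genes. The median size of the change, without its sign, was 1.19 and 1.10, beside 0.38 and 0.36 over all genes. Both comparisons share the 4 wild-type libraries, so their likeness is not a second observation. The 10 genes were chosen with earlier results of these data known, so these shares and medians describe them and are no test of the pathway. Amd1 and Amd2, whose tags can hardly be told apart, are counted separately among the lower calls, the groups without overlap and the medians. Among the libraries without Xist, which hold 1 double-knockout library, 4 of the 6 lower calls and 0 of the 3 higher calls of the double knockout remained, and over all genes 238 were called higher and 234 lower. There the log2 fold changes were 1.05 for Srm, 0.63 for Sat1, 0.42 for Azin1, -0.60 for Sms and -0.61 for Oaz1.

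The direct comparison of the knockouts is one that the study names, and it asks what targeting mTOR adds to targeting Raptor. No gene of the 10 was called (0 of 10, beside 0.0286% of all genes), and DESeq2 and limma on TPM also called 0. At an unadjusted p under 0.05 in edgeR there were 2 of the 10, beside 997 of 10505 tested genes. For Amd1 and Amd2 summed, the log2 fold change was -0.65 (SE 0.48, 95% interval -1.73 to 0.43, edgeR adjusted p = 0.725), although no double-knockout library reached a Raptor-knockout library. That fit shares 1 estimate of spread per gene over all groups, and the wild-type libraries spread far more than the knockouts. With only the 2 knockout groups in the fit the change was nearly the same and was called (-0.635, edgeR adjusted p = 0.0213). With Xist as a covariate it turned to 0.33 (edgeR adjusted p = 0.962). Among the libraries without Xist, which hold 1 double-knockout library, it was -0.68. That library stood at 139 CPM, and the double-knockout libraries with Xist at 139 to 152 CPM. The Raptor-knockout libraries, all without Xist, stood at 181 to 260 CPM. Smox had a log2 fold change of -0.78 (SE 0.27, 95% interval -1.36 to -0.20, unadjusted p = 0.0113, edgeR adjusted p = 0.331). Azin1 had one of -0.56 (SE 0.16, 95% interval -0.90 to -0.22, unadjusted p = 0.00280, edgeR adjusted p = 0.209). The groups did not overlap for Amd1, Amd2 and Azin1, all lower in the double knockout, where 7.03% of all genes showed that. Tags of Amd1 and Amd2 can hardly be told apart, so these genes are not separate observations. For Odc1 the difference was -0.20 (95% interval -0.55 to 0.15) and for Srm 0.22 (95% interval -0.29 to 0.73). For Sms it was 0.06 (95% interval -0.33 to 0.44) and for Sat1 0.37 (95% interval -0.22 to 0.96).

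**Figure D3:**
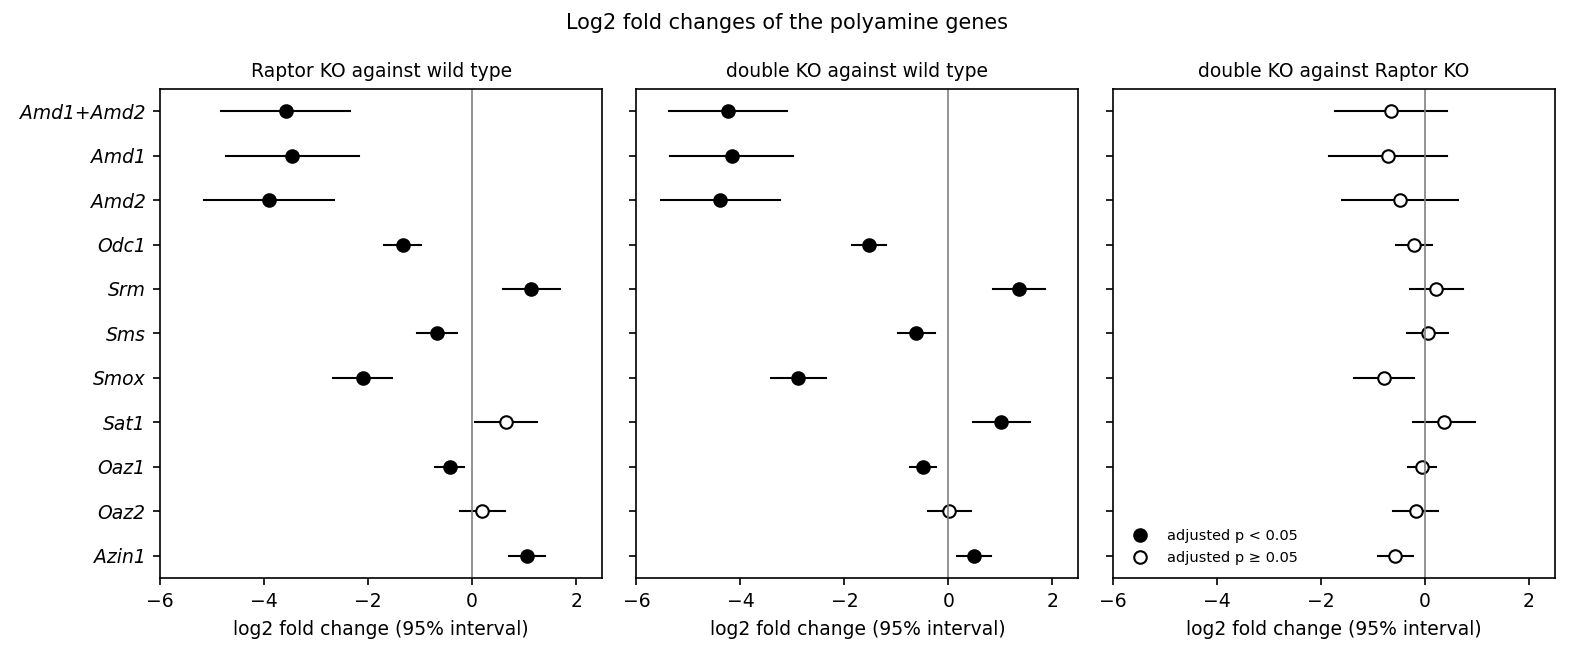
Log2 fold change with its 95% interval (x axis) of each polyamine gene and of Amd1 and Amd2 summed (y axis) in the 3 comparisons, filled where the edgeR adjusted p is under 0.05. Amd1, Amd2 and Smox lie farthest to the left in both comparisons with wild type, and no point is filled in the comparison of the knockouts.

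Genes around the pathway were taken as a wider list. Of its 33 genes, which supply the precursors, carry polyamines or use their products, 21 were tested. In the double knockout 4 were called lower and 1 higher in edgeR, with a median log2 fold change of 0.12 beside 0.02 over all genes. Of all tested genes 13.7% were called lower and 13.0% higher there. In the Raptor knockout 2 were called lower and 0 higher, with a median of 0.06 beside 0.00 over all genes and 5 genes at an unadjusted p under 0.05. All tested genes had 9.43% lower, 8.73% higher and 3333 of 10505 at an unadjusted p under 0.05, so these counts are near the background. Adi1, which acts in the salvage of methylthioadenosine, the by-product of both aminopropyl transfers, stood at 12.9 to 23.2 CPM in wild type, 6.77 to 11.5 in the Raptor knockout and 4.65 to 8.35 in the double knockout. It fell 2.004-fold (edgeR adjusted p = 0.0142) and 2.95-fold (edgeR adjusted p = 0.000259). Oat, which encodes ornithine aminotransferase and so competes for or supplies ornithine, stood at 80.02 to 111 CPM in wild type, 40.9 to 49.7 in the Raptor knockout and 40.7 to 55.9 in the double knockout. It fell 1.94-fold (edgeR adjusted p = 0.000836) and 1.75-fold (edgeR adjusted p = 0.000883). Also called in the double knockout were Apip, another salvage gene (1.53-fold lower, edgeR adjusted p = 0.0131), Mat2b, a regulatory subunit of S-adenosylmethionine synthesis (1.48-fold lower, edgeR adjusted p = 0.0367), and the cationic amino acid carrier Slc7a2 (1.32-fold higher, edgeR adjusted p = 0.0449). For these 3 genes the difference between the knockouts was not called.

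By role, salvage had 2 of 5 tested genes lower in the double knockout and 1 of 5 in the Raptor knockout. Precursor supply had 1 of 2 lower in each, and methyl donor supply had 1 of 5 lower in the double knockout. Transport had 1 of 5 higher in the double knockout, and 0 of 3 hypusine genes and 0 of 1 other breakdown genes were called. With so few genes a role, and 13.7% of all genes lower and 13.0% higher in the double knockout and 9.43% and 8.73% in the Raptor knockout, nothing is read from these counts. Hypusine is the spermidine-derived residue of the translation factor Eif5a. Eif5a stood at 142 to 233 CPM in wild type, 126 to 213 in the Raptor knockout and 142 to 197 in the double knockout. Mat2a, the catalytic subunit of S-adenosylmethionine synthesis, stood at 152 to 179, 116 to 164 and 179 to 221 CPM. Between the knockouts 0 of 21 genes were called in edgeR, beside 0.0286% of all genes. At an unadjusted p under 0.05 in edgeR there were 2 of the 21, beside 997 of 10505 tested genes, so this count is near the background. In that comparison the log2 fold changes of Eif5a and Mat2a were -0.11 (edgeR adjusted p = 0.919) and 0.49 (edgeR adjusted p = 0.209). The arginase genes Arg1 and Arg2, the antizyme inhibitor gene Azin2 and 9 others were too low to test.

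Marker RNAs of macrophages and of fibro-adipogenic cells were higher in the knockouts. Of 8 tested macrophage markers 5 were called higher in the double knockout and 4 in the Raptor knockout, where 13.0% and 8.73% of all genes were, and their summed level ran from 50.1 to 90.2 CPM in wild type, 78.2 to 139 in the Raptor knockout and 115 to 153 in the double knockout. Of 7 markers of fibro-adipogenic progenitors and fibroblasts 5 and 4 were called higher, with summed levels of 573 to 894, 928 to 1045 and 1034 to 1221 CPM. Their part in the higher levels of Srm, Sat1 and Azin1 was not tested. In whole muscle, fewer cells of a type and less RNA per cell cannot be told apart. Of the myofibre markers 2 were called higher and 4 lower in each knockout, beside 13.0% and 13.7% of all genes (double knockout) and 8.73% and 9.43% (Raptor knockout). Markers of endothelium, satellite cells, Schwann cells and adipocytes had 0 called against wild type, and those of erythrocytes 1 of 4 higher in the Raptor knockout. T and B lymphocyte markers summed to at most 0.316 CPM in any library, with Cd3g at 0.

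Among 6403 expressed genes, those whose log2 CPM ran most like Amd1 and Amd2 summed over the 11 libraries were Acot7 (Pearson r = 0.989), Apbb2 (0.982), Synj2bp (0.977), Fsd2 (0.976) and Cdk19 (0.975). These values describe 11 libraries that share 3 group levels and carry no p. Acot7 averaged 17.4 CPM in wild type, 5.91 CPM with Raptor targeted and 4.93 CPM with both targeted. In wild-type replicate 3 each of these genes was lower than in the other wild-type libraries, which the choice by likeness over the same libraries favours, with Acot7 at 10.2 against 17.5 to 24.0 CPM. For Smox they were Fsd2 (0.988), Setd3 (0.984), Tcap (0.984), Tnni2 (0.983) and Mylk4 (0.983). These include the Z-disc gene Tcap (2069, 822 and 555 CPM on average in wild type, Raptor knockout and double knockout) and fast troponin I, Tnni2 (14569.8, 7852.5 and 6712 CPM). Smox itself had r = 0.969 with Amd1 and Amd2 summed.

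RefSeq promoter windows, 250 bases before to 50 after a start, were found for 8 of the 10 genes (9 windows). The E-box CACGTG, searched on both strands, was in 1 of them, an Sms window, at base -196, and in 7.15% of all 32851 windows. The cyclic AMP response element TGACGTCA was in 0 of the 9 and in 1.79% of all windows. The full palindromic androgen response element was in 0 of the 9 and in 3 windows of all. These are matches of letters in a short stretch and say nothing of what binds elsewhere.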

How the data were processed

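The authors deposited expected counts per gene and a table of TPM per library. Per the submitters' processing notes, the tools were fastp 0.20.0, STAR 2.7.0 and RSEM 1.3.3, with GRCm38 (mm10). The annotation and strand setting are not given in the sources used here. Gene positions are from GENCODE M21. A further 6 columns of the authors' count files fitted no sample's label and were left aside. Groups came from the genotype labels, and replicates are numbered in record order. No label ties libraries beyond genotype, but the deposited counts are split into run1 (double-knockout replicates 3 and 4) and run3 (all other libraries). The main fit has no term for run, and its p-values measure the spread between these libraries.

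Expected counts were rounded (2.25% were not whole). Amd1 and Amd2 were summed as an added row. In R 4.3.3, edgeR 4.0.16 (filterByExpr, TMM, robust quasi-likelihood F test, two-sided, 3 groups, 8 residual degrees of freedom) tested 10505 genes holding 99.54% of counts, and p-values were adjusted by Benjamini-Hochberg per comparison. Each edgeR SE was derived from the F test, as the size of the log2 fold change divided by the square root of F. The 95% intervals were built from these SEs with a t distribution. Libraries of 1 group differed by a chi-square of at least 3.04 per degree of freedom, so none repeats another.

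The alternatives were DESeq2 size factors, library totals, no filter and only the 2 groups. Run was added as a term, or the smaller run (double-knockout replicates 3 and 4) was left out. DESeq2's Wald test (version 1.42.0) and limma 3.58.1 on log2 TPM were also used. The limma fits had a pseudocount of 1 or 0.1 and a mean TPM of at least 1, or no filter. The rest were Xist as a covariate, only libraries without Xist (present means at least 10 CPM) and each library left out. Amd-ps3 in the sum and only libraries with Xist were added after seeing the data. The fit was first tested on simulated data in which 200 genes changed. The genes and lists were chosen with earlier results of these data known. The text names the 10 genes, the called genes of the wider list (or the 2 with the highest mean CPM) and the 5 nearest patterns of Amd1 and Amd2 summed and of Smox with a mean log2 CPM of at least 3.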

Additional observations from a re-analysis of the deposited data

Results flagged for a closer look

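A library far from the others of its group was looked for in 22 groups of 4 libraries, and chance alone marks about 1 group in 20. There were 3 such cases. Smox stood at 56.1 CPM in wild-type replicate 3, where the rest of wild type had 103 to 108. Oaz1 stood at 463 CPM in wild-type replicate 2, against 526.5 to 529. Amd1 and Amd2 summed stood at 152 CPM in double-knockout replicate 1, against 139 to 141, a small gap in a narrow group. The low wild-type replicate 3 of Amd1 and Amd2 summed (637 CPM) did not stand out by this measure, because the other wild-type libraries also spread widely.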

How the results depend on the processing

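No paired analysis was possible because the labels give no shared replicate numbers. Over 24 planned settings and 2 added ones, Amd1 and Amd2 summed, Odc1 and Smox kept their calls and direction against wild type in every setting run, of which the double-knockout fits to only the libraries with or without Xist have 1 library in an arm, assumed to vary like the others. The comparison of the knockouts for Amd1 and Amd2 summed was -0.635 and called with only the 2 groups (edgeR adjusted p = 0.0213), and turned to 0.33 with Xist as a covariate, where Amd1 was 0.31 and Amd2 0.45. Genes called higher in the double knockout numbered 1 with Xist as a covariate, 0 in the libraries without Xist and 1 in those with it, and in the Raptor knockout 1 without Xist. Called lower between the knockouts was 1 with only the 2 groups. Over all genes, 953 of 10505 were called higher in the double knockout with Xist as a covariate. In the Raptor knockout 555 of 11194 were called higher without Xist. Between the knockouts 92 of 10161 were called lower with only the 2 groups. In the wider list, 2 were called lower in the double knockout with library totals, the run covariate, the smaller run left out, TPM (3 settings), and only the libraries without or with Xist. Called higher there were 2 with library totals and TPM (pseudocount 1 or 0.1), and 0 with no filter, the run covariate, the smaller run left out, the Xist covariate and only the libraries without or with Xist, with 0 to 1 when a library was left out. In the Raptor knockout 1 was called lower on unfiltered TPM (1 to 2 with a library left out), and 3 higher with library totals. Over all genes, these settings called 375 of 22063 lower and 1638 of 10505 higher there. Between the knockouts 1 was called lower unfiltered or with only the 2 groups (0 to 1 with a library left out). Unfiltered, 61 of 21981 genes were lower there. In the double knockout, library totals called 2421 of 10505 genes higher and 844 lower. TPM with a pseudocount of 1 called 1766 of 10342 higher and 779 lower, and the run covariate 1040 of 10505 higher and 1079 lower. The calls over all genes thus moved with the setting, and nothing is read from the counts of the wider list. Small differences changed sign. Oaz2 in the double knockout was -0.024 with no filter, -0.31 in the libraries without Xist and -0.12 to 0.28 with a library left out, below 0 without wild-type replicate 1, 2 or 3 or double-knockout replicate 2. Between the knockouts Sms was -0.17 with the run covariate and without the smaller run, and -0.049 to 0.21 with a library left out. Sat1 was -0.22 with the Xist covariate and -0.22 in the libraries without Xist. Oaz1 was 0.023 with the run covariate and 0.023 without the smaller run, 0.0066 in the 3 TPM settings, and -0.16 to 0.032 with a library left out. The cause of these changes was not tested. Library totals moved the median of all genes to 0.25 (double knockout) and 0.20 (Raptor knockout), and TPM with a pseudocount of 1 to 0.14 and 0.09. Srm rests on 11 to 40 counts per library, which limits its precision.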

Other observations

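The neighbours of Amd1 were looked at after their values were seen, since Cdk19, which encodes a kinase of the Mediator complex, lies beside it. Cdk19 (chromosome 10, 40339564 to 40483818, plus strand) starts 37.4 kb from the Amd1 start on the opposite strand. It stood at 12.5 to 37.2 CPM in wild type, with replicate 3 the lowest, 10.51 to 10.9 in the Raptor knockout and 7.90 to 10.2 in the double knockout, and no groups overlapped. It fell 2.496-fold (edgeR adjusted p = 0.00472) and 2.95-fold (edgeR adjusted p = 0.000483). Within 500 kb of Amd1, 6 genes were tested, of which 4 were called lower in the double knockout (13.7% of all genes) and 3 in the Raptor knockout (9.43%), with 0 higher. Both counts include Cdk19, which prompted the look and had been picked by its likeness to Amd1 and Amd2 summed, so nothing is read from them. Slc16a10, an aromatic amino acid carrier, was at -0.69 in the double knockout and -0.79 in the Raptor knockout, and Gtf3c6, a subunit of a transcription factor of RNA polymerase III, at -0.61 and -0.57. Ddo, which encodes D-aspartate oxidase, was at -0.78 in the double knockout (edgeR adjusted p = 0.0270) and 0.22 in the Raptor knockout (edgeR adjusted p = 0.587), and the difference between the knockouts was -0.995 (edgeR adjusted p = 0.174). Rpf2 and Mfsd4b1 were not called. Amd2 had 0 tested neighbours in the same distance.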
